A study of Homo sapiens with 4 samples.

Results

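The transcripts described here are the messenger RNAs of the mitochondrial genome, the small circular chromosome that codes for 13 proteins of the respiratory chain. They were taken as all array probe sets annotated to 1 gene only, that gene being one of these 13, with or without the prefix MT-. A match by gene number to a gene on chromosome MT of the GRCh38.p14 gene annotation was also required. The rule found 10 of 54613 probe sets. They covered 7 of the 13 genes, with 2 probe sets each for ND4, COX2 and ATP6 and 1 each for ND2, ND6, COX1 and COX3. ND1, ND3, ND4L, ND5, ATP8 and CYTB, and the mitochondrial ribosomal RNAs, are not analysed here.

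RNA was measured on 4 single-colour Affymetrix arrays of KM-H2, an established Hodgkin lymphoma cell line in which CIITA, the activator of HLA class II genes, is fused to the transcript BX648577. The knockdown group (2 arrays) consisted of KM-H2 cells transduced by lentivirus with pGIPZ-sh.FLJ27352, a vector for a short hairpin RNA aimed at the BX648577 part of the fusion. The control group (2 arrays) consisted of KM-H2 cells with a non-silencing control, whose sequence the labels do not give. All cells were thus of 1 line, only 1 hairpin was used, and no label says whether the arrays of a group came from separate cultures, so p-values measure only the spread between these samples. The comparison asked which RNAs differ once the fusion transcript is targeted. The hairpin is shown because it is the agent by which, per the labels, the knockdown group differs from the control group, with its self-complementary arms in capitals.
Hairpin: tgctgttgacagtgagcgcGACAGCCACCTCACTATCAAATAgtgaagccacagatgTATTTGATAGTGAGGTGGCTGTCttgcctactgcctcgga

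Both strands of mitochondrial DNA are copied into long transcripts by a polymerase of their own, POLRMT, and the tRNAs that lie between the genes are cut out to release the messenger RNAs. ND2 and ND4 code for proton-pumping subunits of the membrane arm of complex I, the NADH dehydrogenase. COX1, COX2 and COX3 form the core of cytochrome c oxidase, and ATP6 is part of the proton channel of ATP synthase. ND6, a further complex I subunit, is the only protein coded on the opposite strand. A much larger set of nuclear genes supply the remaining subunits and the machinery that expresses and assembles them.

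Mean intensities were 54.6 and 53.3 on the knockdown arrays and 54.2 and 53.7 on the control arrays, and the highest values on an array lay between 5560 and 5718. The probe set of PIERCE2, the gene that general knowledge links to FLJ27352, read 621 and 590 on the knockdown arrays, against 880 and 947 on the control arrays. Of 7 markers of Hodgkin and Reed-Sternberg cells, 4 had a mean intensity above 100, among them TNFRSF8 (CD30) at 118, while CCL17 read 15.7. All 5 epithelial markers and 5 of 6 T cell markers had means below 20, and the T cell gene CD3D was the exception at 214. The summed level of the T cell list was 290 and 250 on the knockdown arrays and 215 and 213 on the control arrays, most of it from CD3D, and its part in the results below was not tested. Of 5 fibroblast markers 3 had means below 20, and their sum was 108 and 107 on the knockdown arrays and 140 and 154 on the control arrays, a difference whose part was not tested either. The sums for mature B cells, monocytes and epithelial cells were below these control sums on every array.

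All 10 mitochondrial probe sets had a higher mean in knockdown cells than in control cells, and ND2 stood apart with a knockdown mean at 149% of control. At 9 of 10 probe sets both knockdown arrays lay above both control arrays, which held for 23.3% of all 27307 probe sets tested. The 10 were read on the same 4 arrays, and genes of 1 strand are copied together, so they are not taken as independent. The differences are given on the log2(intensity + 16) scale as knockdown minus control, with the standard error of limma's fit (n = 2 arrays per group). Their median was 0.20 with quartiles of 0.16 and 0.25, beside a median of 0.00 with quartiles of -0.13 and 0.12 over all probe sets tested. None of the 10 passed limma's fit with 1 prior variance for all probe sets (the common-prior fit) at an adjusted p of 0.05, a threshold that 0.00732% of probe sets passed in either direction. With a prior variance that follows intensity (the intensity-trend fit), 3 of 10 passed, all higher, namely ND2 and both probe sets of ND4. In that fit 1.29% of all probe sets passed as higher. At an unadjusted p below 0.05 the common-prior fit gave 1 of the 10, ND2, and 3636 (13.3%) of all probe sets.

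**Figure D1:**
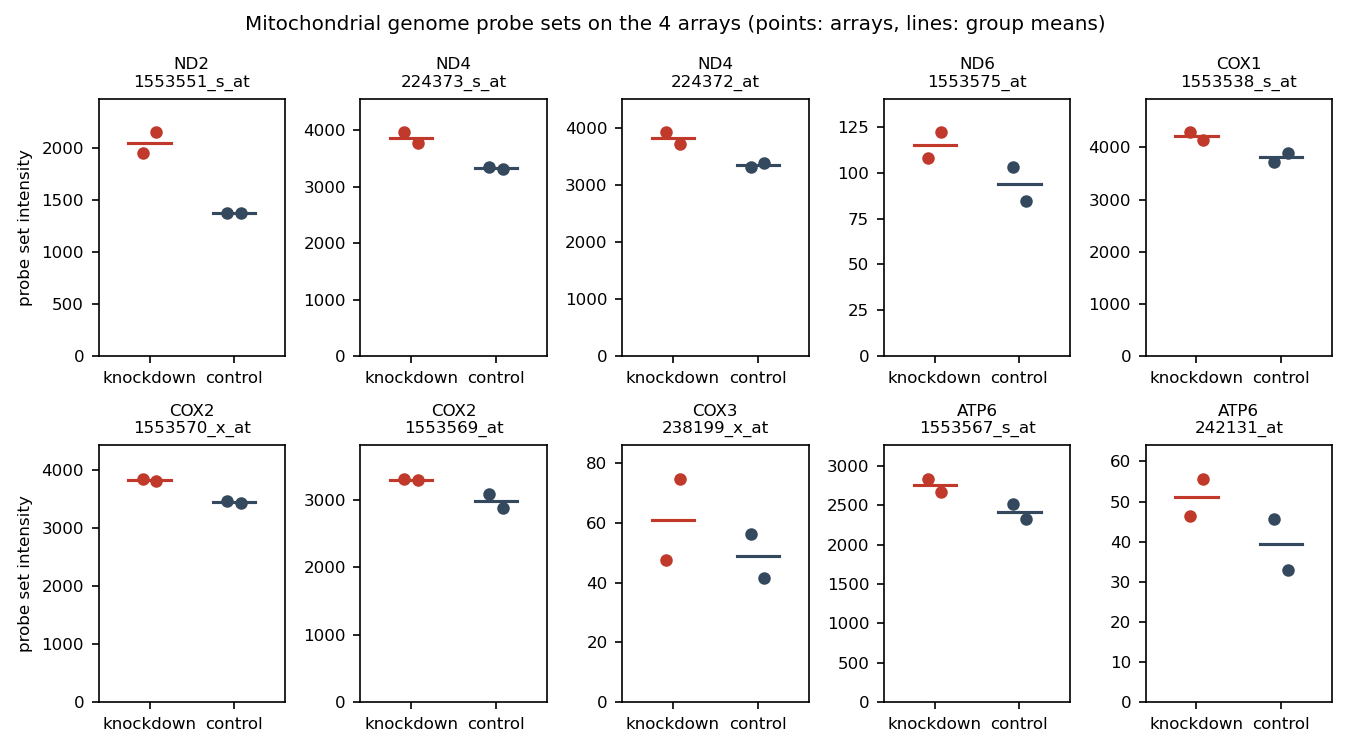
Probe set intensity (linear axis from 0) of the 10 mitochondrial probe sets, each in a panel of its own, with knockdown arrays as red points, control arrays as dark points and lines at the group means (n = 2 each). Both knockdown points lie above both control points in 9 of the 10 panels, and the gap is widest in relative terms for ND2, at 1952 and 2153 against 1375 and 1375.

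The ND2 probe set (1553551_s_at) read 1952 and 2153 on the knockdown arrays and 1375 and 1375 on the control arrays. The groups did not overlap, and the lowest knockdown value exceeded the highest control value by 577. Knockdown averaged 2052 ± 142 and control 1375 ± 0.01 (SD, n = 2 each). The log2 difference was 0.57 (SE 0.11, 95% interval 0.31 to 0.83 before adjustment), and the limma adjusted p was 0.279 with the common prior and 5.94e-05 with the intensity trend. The knockdown arrays differed from each other by 0.14 on that scale, while the 2 control values, at 1375.43 and 1375.45, were almost the same. Of all probe sets tested, 108 (0.396%) had a difference at least as high as that of ND2. Of the 410 with a mean intensity above 1000, ND2 itself was the only one.

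ND4, which like ND2 sits in the membrane arm of complex I, was read by a pair of probe sets. Whether probe sets of the same gene share sequence was not checked for ND4, COX2 or ATP6, so they are not taken as independent. The first (224373_s_at) read 3965 and 3779 on the knockdown arrays and 3357 and 3318 on the control arrays. The second (224372_at) read 3917 and 3714 on the knockdown arrays and 3307 and 3381 on the control arrays. Neither overlapped between groups. The log2 differences were 0.21 (SE 0.11, interval -0.04 to 0.46) and 0.19 (SE 0.11, interval -0.06 to 0.44). Limma's adjusted p was 0.432 and 0.482 in the common-prior fit, and 0.0182 and 0.0344 in the intensity-trend fit. Both calls of the intensity-trend fit were lost without knockdown replicate 1 (adjusted p 0.0502 and 0.138) and without control replicate 2 (0.0824 and 0.0863), and the second was lost without control replicate 1 (0.107).

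ND6 (1553575_at), the gene of the opposite strand, was dim beside these, at 108 and 122 on the knockdown arrays and 103 and 84.6 on the control arrays. The groups were separated by only 4.96, and the controls differed from each other by 0.25 on the log2 scale, close to the difference between groups of 0.26 (SE 0.13). Limma gave it an adjusted p of 0.434 with the common prior and 0.239 with the intensity trend. The mean was thus higher in knockdown cells for all 3 complex I genes of the mitochondrial genome that were measured.

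The cytochrome c oxidase transcripts passed neither fit. COX1 (1553538_s_at), the catalytic subunit, read 4289 and 4138 on the knockdown arrays and 3726 and 3892 on the control arrays. COX2, which takes up electrons from cytochrome c, read 3847 and 3811 on the knockdown arrays and 3469 and 3434 on the control arrays at 1553570_x_at, and 3310 and 3292 against 3094 and 2873 at 1553569_at. At these 3 probe sets the groups did not overlap, and knockdown means stood between 110.6% and 110.9% of control. The log2 differences were 0.15 for COX1 and 0.15 at each COX2 probe set (SE 0.11 each), with intensity-trend adjusted p-values from 0.0756 to 0.120 in limma. COX3 (238199_x_at) was dim and its groups overlapped, at 47.4 and 74.6 on the knockdown arrays and 56.2 and 41.5 on the control arrays (log2 difference 0.23, SE 0.19). Without knockdown replicate 2 the COX3 difference was -0.02.

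The ATP6 probe set 1553567_s_at read 2831 and 2666 on the knockdown arrays and 2509 and 2318 on the control arrays, with no overlap. The log2 difference was 0.19 (SE 0.11), and limma gave it an adjusted p of 0.504 with the common prior and 0.0667 with the intensity trend. The other ATP6 probe set (242131_at) was dim, at 46.5 and 55.6 on the knockdown arrays and 45.6 and 33.1 on the control arrays, groups that were 0.91 apart (log2 difference 0.28, SE 0.15). At the 3 dim probe sets (ND6, COX3 and this one) knockdown replicate 2 exceeded knockdown replicate 1 and control replicate 1 exceeded control replicate 2, so the differences there depend on which arrays are set against each other. A further probe set annotated to several genes, 1 of them mitochondrial, read 3576 and 3594 on the knockdown arrays and 3365 and 3288 on the control arrays (log2 difference 0.11) and is not counted among the 10.

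**Figure D2:**
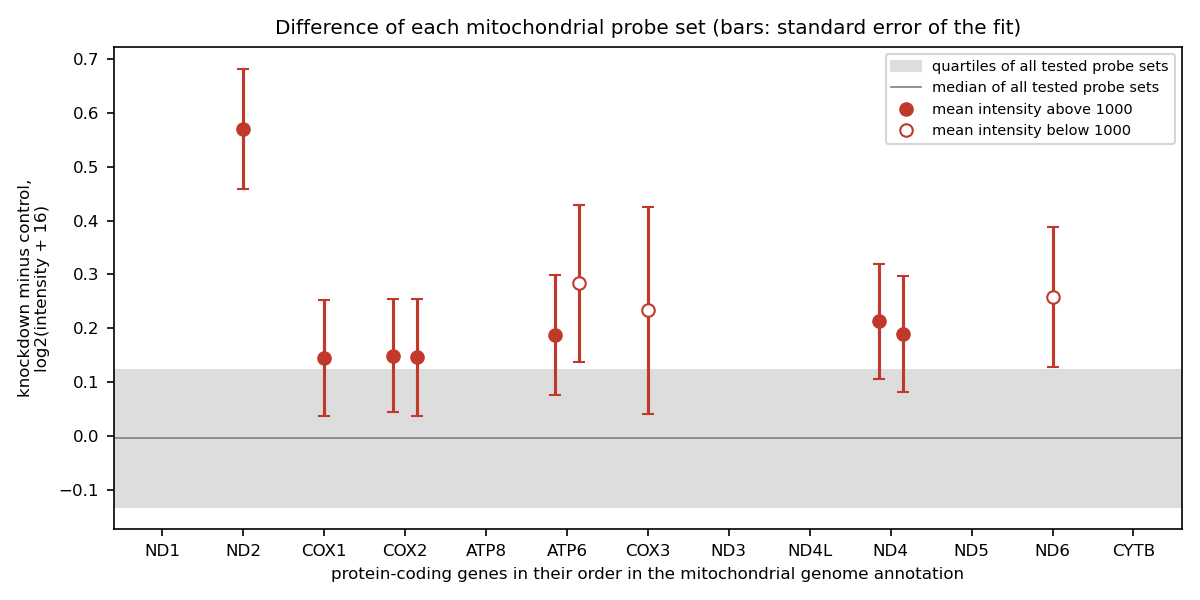
Log2 difference (knockdown minus control) of each mitochondrial probe set with the standard error of the fit as bars, in the order of the genes in the mitochondrial annotation, with 6 genes empty. Filled points have a mean intensity above 1000; all points lie above the grey band (quartiles of all tested probe sets, -0.13 to 0.12), ND2 at 0.57 and the rest between 0.15 and 0.28.

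Of the 10 probe sets, 7 had a mean intensity above 1000, and they were compared with other bright probe sets, a limit chosen after the values were seen. All 7 were free of overlap with knockdown higher, which held for 30.2% of the 410 tested probe sets in that range. Their median log2 difference was 0.19, against 0.00 for the 403 such probe sets outside the mitochondrial genome. The intensity-trend fit called 3 of the 7 as higher, beside 3.66% of the 410. Among the 403, 3.47% had a difference at or above 0.20, the median of all 10 mitochondrial probe sets, bright and dim. Of the 7 bright mitochondrial ones, 28.6% did. That cut was taken from the mitochondrial values themselves, and 50% of the 10 reach it by definition, so their share is no separate result. The highest value on any array was 5718, and whether signal was compressed towards the top of the scale was not tested. The summed intensity of the 10 probe sets was 0.816% and 0.817% of the array total in knockdown and 0.711% and 0.708% in control. Probes of several of these sets can match nuclear copies of mitochondrial sequence, and the share of signal from such copies was not tested. More mitochondria per cell, more transcript per mitochondrion and a larger share of cells with a high level cannot be told apart in RNA of bulk cultures.

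Ratios within an array show whether ND2 and the other bright mitochondrial probe sets kept the same proportion. The ratio of ND2 to ND4 (224373_s_at) within an array was 0.492 and 0.570 in knockdown and 0.410 and 0.414 in control. The ratio to COX1 was 0.455 and 0.520 in knockdown and 0.369 and 0.353 in control. Relative to ATP6 (1553567_s_at) it was 0.690 and 0.807 in knockdown and 0.548 and 0.593 in control. Over the 6 probe sets used as denominators the log2 ratio was higher in knockdown by 0.36 to 0.43. ND2 was the least bright of the 7, with a control mean of 1375 against 2413 for ATP6 (1553567_s_at), the next. Whether compression of the brighter signals adds to the gap was not tested. ND2 was taken as the numerator after its values were seen, as the probe set with the largest difference, and the ratios share its 1 value per array, so they describe that gap again and do not support each other. An exact two-sided permutation test of each ratio gave p = 0.333, the smallest that 2 arrays against 2 allow.

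**Figure D3:**
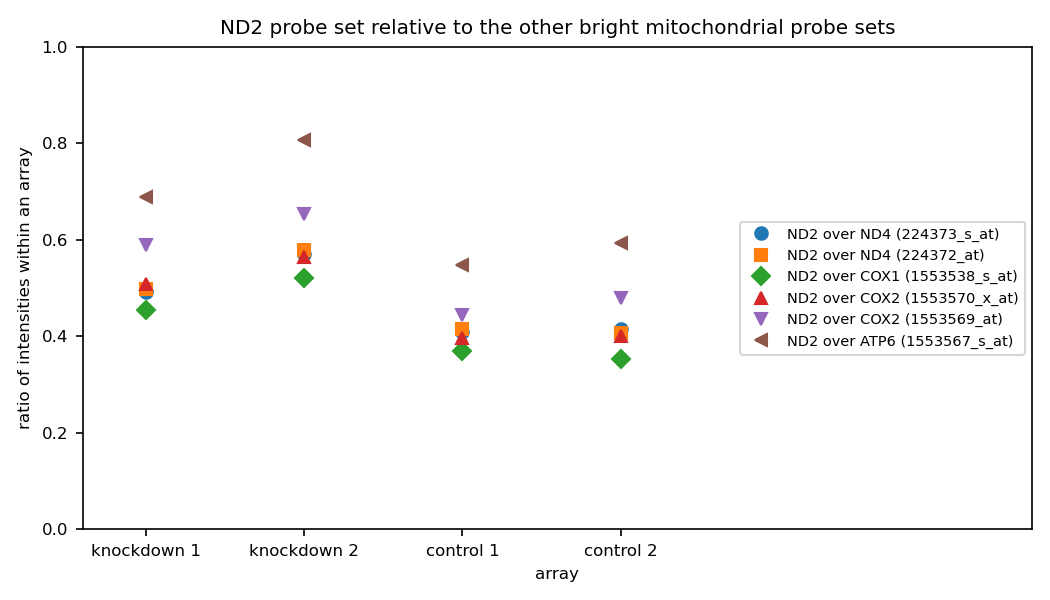
Ratio of the ND2 intensity to that of each other mitochondrial probe set with a mean above 1000, within each array (linear axis from 0, 1 marker shape per denominator). The ratio over ND4 (224373_s_at) is 0.492 and 0.570 in knockdown, against 0.410 and 0.414 in control; the 6 denominators share the same ND2 value in each array.

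Nuclear genes that express, assemble or accompany these transcripts were examined in 8 lists, each gene at its brightest probe set. Of 126 genes tested, 0 passed the common-prior fit of limma, and 10 (7.94%) had an unadjusted p below 0.05 there, against 13.3% of all probe sets tested. In the intensity-trend fit 2 passed, both higher, beside 1.29% of all probe sets, and none of the 126 passed that fit without knockdown replicate 2, without control replicate 2 or with quantile normalization. TACO1, a translational activator of COX1, read 65.6 and 64.2 on the knockdown arrays and 41.2 and 43.6 on the control arrays (log2 difference 0.47, SE 0.11), with adjusted p-values of 0.285 in the common-prior and 0.0404 in the intensity-trend fit. NDUFA2, a complex I subunit chosen for mention after its values were seen, read 337 and 357 on the knockdown arrays and 282 and 275 on the control arrays (0.30, adjusted p = 0.322 and 0.0433).

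The nuclear subunits of complex I, the partners of ND2 and ND4, had a median log2 difference of 0.05, with 22 of 33 above 0. Both knockdown arrays lay above both control arrays for 16 of the 33, against 23.3% of all probe sets tested, and below them for 8, against 22.8% of all. The share above was not particular to complex I subunits. It was 47.4% for complex I assembly factors, 53.8% for markers of mitochondrial content and 41.7% for translation factors, and from 0% to 25% in the remaining lists. List genes were taken at their brightest probe set, so the share over all probe sets is not a like comparison. NDUFS7, which carries an iron-sulfur cluster near the quinone site, read 168 and 201 on the knockdown arrays and 148 and 131 on the control arrays (0.36, limma adjusted p = 0.320). NDUFA5, of the peripheral arm, read 208 and 202 on the knockdown arrays and 167 and 153 on the control arrays (0.33, adjusted p = 0.311). Other subunits lay below 0, such as NDUFA1 at a mean of 1203 in knockdown and 1241 in control (-0.04) and NDUFB1 at 1067 in knockdown and 1159 in control (-0.12), both named after their values were seen.

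Complex I assembly factors had a median of 0.10, with 15 of 19 above 0 and none called. NDUFAF1 read 88.5 and 84.5 on the knockdown arrays and 70.2 and 67.7 on the control arrays (0.27, adjusted p = 0.348 in limma's common-prior fit), and TIMMDC1, which acts on the membrane arm, read 97.5 and 94.2 against 78.7 and 75.8 (0.26, adjusted p = 0.359). NDUFAF1 works with ECSIT, ACAD9 and TMEM126B in the complex that assembles the segment holding ND2. These partners, named for that role after their values were seen, had differences of 0.14, -0.01 and -0.08.

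The machinery of mitochondrial transcription had a median of 0.03, with 5 of 9 genes above 0 and none called. POLRMT read 94.4 and 92.3 on the knockdown arrays and 78.5 and 76.7 on the control arrays at its brightest probe set (0.22, adjusted p = 0.407 in limma's common-prior fit). Its other tested probe set, dim at means of 9.3 in knockdown and 9.6 in control, gave -0.01. TFAM, which packages mitochondrial DNA and starts its transcription, read 137 and 131 on the knockdown arrays and 168 and 141 on the control arrays at its brightest probe set (-0.18), while its other tested probe sets gave 0.26 and 0.31, so its direction is not settled. RNA processing and stability genes had a median of 0.00 with 10 of 20 above 0. FASTKD5, needed to mature messenger RNAs that no tRNA borders, stood at 0.33 (35.2 ± 0.18 in knockdown and 24.7 ± 1.46 in control, SD, n = 2 each), and TRIT1, a tRNA-modifying enzyme, at -0.29. LRPPRC and SLIRP, which together stabilise mitochondrial messenger RNAs, were named after their values were seen and stood at 0.06 and -0.15.

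Mitochondrial translation factors had a median of 0.09 with 8 of 12 above 0, led by TACO1 and by MRRF, the ribosome recycling factor, at 0.27. Genes of mitochondrial DNA replication and nucleotide supply had a median of 0.01 with 6 of 12 above 0. POLG, the catalytic subunit of the mitochondrial DNA polymerase, gave 0.21 and the ribonucleotide reductase subunit RRM2B -0.17. Regulators of mitochondrial biogenesis had a median of 0.00 with 4 of 8 above 0. GABPA, a factor that drives nuclear respiratory genes, stood at -0.27, and YY1 at -0.23 at its brightest probe set but between -0.18 and 0.10 at its other tested ones. Markers of mitochondrial content had a median of 0.06 with 9 of 13 above 0, with citrate synthase (CS) at 0.20 (608 ± 5.37 in knockdown and 527 ± 25.9 in control, SD, n = 2 each) and the import channel TOMM40 at 0.30. None of the genes in these last 3 lists passed either fit.

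**Figure D4:**
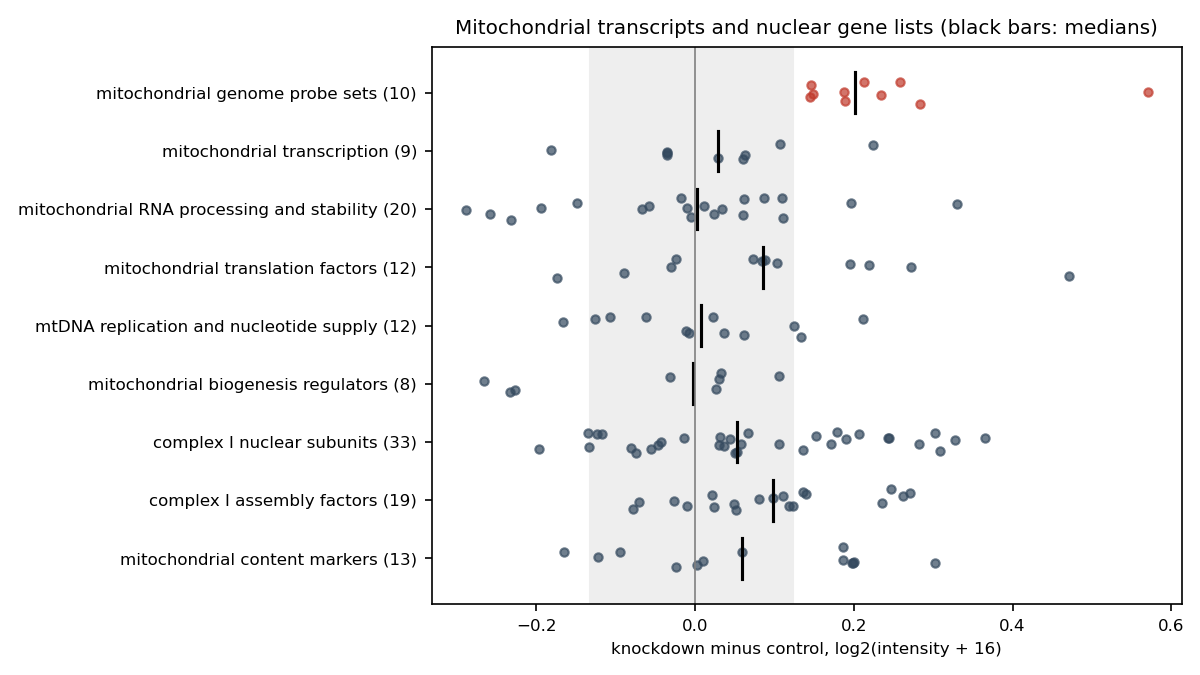
Log2 difference (knockdown minus control) of the 10 mitochondrial probe sets (red, top row) and of the tested genes of 8 nuclear lists (dark points, number of genes in brackets), with black bars at the medians and the grey band at the quartiles of all tested probe sets. The mitochondrial probe sets all lie between 0.15 and 0.57, and the nuclear lists spread on both sides of 0 with medians from 0.00 to 0.10.

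The genes whose pattern over the 4 arrays was most like that of the mitochondrial probe sets were sought among the 2326 one-gene probe sets outside the mitochondrial genome that were in the brightest 10% of those tested. The measure was the Euclidean distance between log2 values, each minus its own mean, and the mean pattern of the 10. The nearest were CLTA (a clathrin light chain, distance 0.01), DIABLO (a mitochondrial protein released in apoptosis, 0.02), NAV1 (0.02), SDF4 (a calcium-binding protein of the Golgi, 0.03) and PAK2 (a protein kinase, 0.03), against a median distance of 0.27 over all candidates. CLTA read 791 and 831 on the knockdown arrays and 708 and 665 on the control arrays. The mitochondrial probe sets themselves lay farther from that mean, between 0.11 (COX2 at 1553569_at) and 0.35 (COX3), with ND2 at 0.34, so the likeness is to their average and to no single one. Knockdown replicate 2 exceeded replicate 1 in that average, as it did for ND2, ND6, COX3 and the dim ATP6 probe set, while the other 6 ran the other way.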

How the data were processed

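The authors deposited an intensity on a linear scale for each of 54613 probe sets on each array. Their summarisation and scaling steps are, in the sources used here, not given. Per the labels' protocols, total RNA was labelled by the Affymetrix 1-cycle method. Array medians on the log2(intensity + 16) scale spanned 0.07, and arrays were left as deposited. That span followed the groups. Median intensities were 8.37 and 8.12 on the knockdown arrays and 9.17 and 9.28 on the control arrays, so median centring raises every difference. Probe sets were named through the platform annotation (41091 with 1 gene, 1801 with several, 11721 with none). Those with a mean log2 value below the median (4.60) were left out, which kept 27307, all 10 mitochondrial ones among them. The 2 groups were contrasted by lmFit and eBayes (limma 3.58.1, R 4.3.3), two-sided, with Benjamini-Hochberg adjustment over all 27307.

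Members, lists and tests were chosen with earlier results of these data known. By rule the named genes are all members, in each list those called by the common-prior fit or, with none called, the 2 of largest moderated t, and the 5 of nearest pattern; others are marked as named after their values were seen. Lists are described by counts, with no set test. On simulated data for this comparison (27307 probe sets, changes in those above the median intensity, variances from the intensity-trend prior), the common-prior fit recovered 0% of changes of 0.2 or 0.5 and 60.3% of changes of 1, and the intensity-trend fit 2.69%, 50.7% and 100%. Most probe sets so changed were dimmer than the 7 bright mitochondrial ones, so these rates do not describe those 7. Variances drawn from the intensity trend favour the intensity-trend fit, so the rates do not rank the fits. No mitochondrial sequence was among the tables used here. Only 2 arrays a group limit the precision.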

Additional observations from a re-analysis of the deposited data

How the results depend on the processing

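All 10 mitochondrial probe sets kept a difference above 0 under the settings tried, except COX3, which ranged from -0.024 (without knockdown replicate 2) to 0.49 (without knockdown replicate 1), and ND2 lay between 0.50 and 0.64 throughout. The median of the 10 was 0.26 with median centring, which also moved the median of all probe sets tested from 0.00 to 0.05. The median of the 10 was 0.17 with a pseudocount of 64, and 0.14 to 0.23 with single arrays left out, the lowest without control replicate 2. The lone array of a group was then assumed to vary like the other group. Calls depended on the variance model. The common-prior fit called 0 mitochondrial probe sets, and 1 (ND2, adjusted p = 0.000815) with a pseudocount of 64, where 3 nuclear genes and 663 probe sets in all passed. Of all probe sets it called 2, 0 with no filter or a pseudocount of 1, and 0 to 4 with single arrays left out. The intensity-trend fit called 3 mitochondrial and 2 nuclear list genes, and 591 probe sets in all. In 10 further settings of that fit, added after seeing the data, it called ND2 each time. It called 1 mitochondrial probe set (ND2) without knockdown replicate 1 or control replicate 2, 4 without knockdown replicate 2, 2 with 1 probe set per gene and 7 with median centring. Nuclear list genes numbered 0 without knockdown replicate 2, without control replicate 2 or with quantile normalization, 3 without knockdown replicate 1, 3 with 1 probe set per gene and 7 with median centring. Calls over the whole table moved too, from 591 to 873 with median centring and to 456 with quantile normalization. With 1 probe set per gene, where fewer were tested, they numbered 387. With the replicate block the intensity-trend fit called 7 mitochondrial probe sets, 8 nuclear list genes and 1462 probe sets in all. The common-prior fit with that block called 0, 0 and 2. Same-numbered arrays did not deviate together (r = -0.01 across probe sets), so the numbers do not show a pairing. The cause of these shifts in calls was not tested.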
